A study of Mus musculus with 9 samples.

Results

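The comparison described here sets mammary tumors treated with NanoTLZ, a liposomal form of the PARP inhibitor Talazoparib, against tumors treated with the same dose of free Talazoparib given intravenously (i.v. TLZ). The 3 NanoTLZ tumors C3519, C3669 and C3698 and the 3 i.v. TLZ tumors B3638, B3684 and B3700 were taken by their labels, which makes 6 of the 9 tumors of the series. The other 3 are saline tumors, which share the fit and are given beside some results. All mice were Brca1Co/Co;MMTV-Cre;p53+/-, in which Cre under the MMTV promoter removes *Brca1* in mammary epithelium, though the promoter is active in other tissues too, and 1 allele of *Trp53* is lost in every cell. Treatment began at tumor diameters of 4-5 mm, and 5 doses were given at 3 per week, each of 0.33 mg/kg Talazoparib in both treated groups.

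NanoTLZ was diluted in saline, whereas free Talazoparib was first dissolved in DMSO, and no tumor treated with empty liposomes was sequenced. Effects of the carrier, of the solvent and of the way the drug reaches the tumor therefore cannot be told apart in these samples. Total RNA was prepared from whole flash frozen tumors, and the labels do not give the age of the mice. A figure legend of the study counts mice in each sequenced group, so each tumor is taken as 1 mouse. Counted reads were 20617174, 18681830 and 18343874 in B3638, B3684 and B3700 and 20330927, 17538380 and 18665722 in C3519, C3669 and C3698.

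PARP inhibitors hold PARP1 on damaged DNA, and the breaks that follow when replication reaches it are repaired by homologous recombination, the pathway that needs BRCA1. A liposome changes how long a drug circulates and which cells take it up, with macrophages and other phagocytes clearing many of the particles and leaky tumor vessels letting some of them into the tissue. The question was therefore which genes differ between tumors that got the same drug in these 2 forms, from the drug's own pathways to vessels, oxygen supply, phagocytes and lipid handling.

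Markers fixed for cell types were read first. The epithelial marker *Epcam* stood at 659, 1368 and 604 CPM (counts scaled to a common depth) in the i.v. TLZ tumors B3638, B3684 and B3700, the order used throughout, and at 933, 1126 and 1163 CPM in the NanoTLZ tumors C3519, C3669 and C3698. Values below are given in these orders, with the i.v. TLZ tumors before the word against and the NanoTLZ tumors after it. The leukocyte marker *Ptprc* stood at 66.1, 25.9 and 43.4 CPM after i.v. TLZ and 76.6, 51.9 and 91.7 CPM after NanoTLZ. All 6 tumors thus carried epithelial and leukocyte RNA, and both groups overlapped for each of these markers. *Ly6g* of neutrophils was near the floor, with 0.582, 0.273 and 0.433 CPM after i.v. TLZ against 0.193, 0 and 0.207 CPM after NanoTLZ. Every NanoTLZ tumor was lower for it, but it did not pass the count filter and was not tested. *Adipoq* of fat cells was near the floor too, with 0.485, 0.328 and 0.0541 CPM against 2.84, 0 and 0.155 CPM. The other neutrophil markers were above the floor and overlapped, *S100a8* at 41.6, 17.8 and 8.33 CPM against 20.9, 12.5 and 41 CPM and *S100a9* at 47.4, 12.4 and 6.01 CPM against 13.6, 11 and 39.9 CPM. In bulk tissue, fewer cells of a type and less RNA per cell cannot be told apart, which holds for every marker list below. *Brca1* was at 11.8, 9.46 and 31.5 CPM after i.v. TLZ and 18.4, 18.2 and 19.8 CPM after NanoTLZ, and *Trp53* was at 33, 38.9 and 31.1 CPM against 108, 29.4 and 31.3 CPM, with C3519 alone high. Counts per gene do not show which part of an allele is deleted.

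The i.v. TLZ tumor B3684 stood apart from the other treated tumors. Its Spearman correlations of log2 CPM with the 5 others were 0.912-0.937, against 0.960-0.967 between the other i.v. TLZ tumors and the NanoTLZ tumors. B3684 was the tumor farthest from its group's median in 6427 of 15821 genes (40.6%), beside 36.7% for C3669 in the NanoTLZ group. By itself this share sets B3684 little apart. In the saline group, A3688 stood apart, with correlations of 0.843-0.875 with the treated tumors. Its part here is in the shared count filter, scaling and estimate of spread. Without A3688, 16112 genes passed that filter in place of 15821. The rise was not particular to A3688, with 16360 genes without A3673 and 16228 without A3685. Results are therefore given with and without B3684. The i.v. TLZ tumor B3638 also moved many gene lists when it was left out, and its effect is named where it matters.

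Across the 15821 genes that passed the count filter, no adjusted p of edgeR came under 0.05 (0 genes, 0%), with 0.999943 as the lowest. An unadjusted p under 0.05 was given by edgeR to 71 genes that were higher after NanoTLZ (0.449%) and to 195 that were lower (1.23%), 266 in all, fewer than the 791 expected at that threshold where no gene differs. DESeq2 called 3 genes when fitted to all 9 tumors and 21 when fitted to the 6 treated tumors, with 435 and 737 genes at an unadjusted p under 0.05. Without B3684 edgeR called 0 genes and gave an unadjusted p under 0.05 to 229, of which 90 were higher, and without B3638 to 623, of which 306 were higher. Without C3669 edgeR gave such a p to 97 higher and 105 lower genes, and without B3700 to 94 higher and 309 lower genes. The excess of lower genes was thus small or absent when B3638 or C3669 was left out, but larger without B3700. Limma-voom, with 86 higher and 99 lower genes, showed a small excess only.

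In CPM, all 3 NanoTLZ tumors lay above all 3 i.v. TLZ tumors in 507 genes (3.2%) and below them in 697 genes (4.41%). The exact permutation test of 3 against 3 tumors has 10 splits and cannot give a p below 0.1, so non-overlap is given as a description. Both an unadjusted edgeR p under 0.05 and non-overlap were found in 54 higher and 94 lower genes. The median log2 difference of all tested genes, NanoTLZ minus i.v. TLZ, was -0.04, and -0.01 without B3684, and 45.6% of genes were above 0. An absolute log2 difference over 1 was found in 415 higher and 773 lower genes. The median 95% interval, unadjusted for the number of genes, reached 0.985 on the log2 scale to each side, nearly a doubling. No gene with an absolute log2 difference over 1 was called by edgeR, so differences larger than a doubling could go uncalled too.

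**Figure D1:**
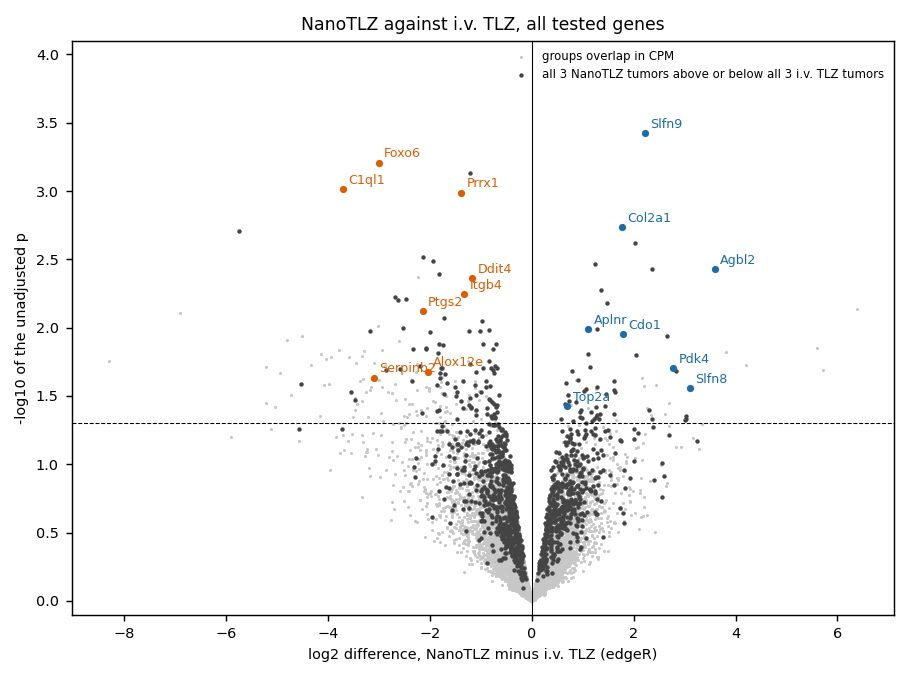
Log2 difference of each of 15821 tested genes, NanoTLZ minus i.v. TLZ, against its unadjusted edgeR p, with genes whose groups do not overlap in dark and a dashed line at an unadjusted p of 0.05. Slfn9 and Foxo6 have the smallest p-values, 0.000379 and 0.000621, and more genes lie on the lower side, 195 against 71.

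Genes are named below by a rule stated in the methods: the largest differences among genes with an unadjusted p under 0.05 and no overlap, the extremes of each list, and every gene the study names. Since no gene passed the adjusted edgeR test, the words higher and lower describe these 6 tumors only. A list's most abundant member is the one with the largest CPM summed over these 6 tumors, and in a single tumor another can be higher.

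The smallest p belonged to *Slfn9*, a Schlafen gene related to human SLFN11, a protein that blocks stressed replication forks and is known for its link to PARP inhibitor response. *Slfn9* stood at 4.65, 6.07 and 5.03 CPM after i.v. TLZ and at 28.2, 12.5 and 32.9 CPM after NanoTLZ (log2 difference 2.22, 95% interval 1.31 to 3.13, edgeR unadjusted p = 0.000379). Every NanoTLZ tumor exceeded every i.v. TLZ tumor, and the log2 difference without B3684 was 2.34. The saline tumors, at 19.7, 16.8 and 29.8 CPM, lay within or near the range of the NanoTLZ tumors. The neighboring *Slfn8* stood at 0.436, 1.04 and 0.271 CPM after i.v. TLZ and 5.68, 3.38 and 6 CPM after NanoTLZ (log2 difference 3.099, 95% interval 0.56 to 5.64, edgeR unadjusted p = 0.0278, 3.80 without B3684). The pseudogene *Slfn10-ps* stood at 1.26, 0.765 and 0.974 CPM against 4.48, 6.39 and 8.12 CPM (log2 difference 2.65, 95% interval 0.82 to 4.48, edgeR unadjusted p = 0.0116, 2.497 without B3684). In both of them the groups were apart. These 3 genes are similar in sequence and may share reads, so they are not 3 separate observations and the split of reads between them is uncertain. They are neighbors on chromosome 11, where a run of 17 neighboring genes was low in B3700 (median deviation -0.97), while the median over the same genes was 0.09 in B3638 and -0.70 in B3684. A run of 13 of these genes was called high in C3698, with 10 of 13 above 0 and a median of 0.34, beside 0.30 in C3519 and 0.06 in C3669.

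*Pdk4*, whose kinase shuts pyruvate out of the mitochondrion during fasting and fat use, stood at 8.87, 3.77 and 20.2 CPM after i.v. TLZ and 149, 50.1 and 26.2 CPM after NanoTLZ (log2 difference 2.78, 95% interval 0.68 to 4.87, edgeR unadjusted p = 0.0198). The groups did not overlap, but C3519 was far above the other NanoTLZ tumors, and the log2 difference was 2.37 without B3684 and 1.80 without C3519. *Cdo1*, for the enzyme that oxidizes cysteine, stood at 1.99, 2.79 and 2.92 CPM against 8.23, 6.66 and 11.6 CPM (log2 difference 1.78, 95% interval 0.54 to 3.03, edgeR unadjusted p = 0.0111, 1.85 without B3684). *Pcdhb14*, a protocadherin of cell contacts, stood at 1.6, 0.656 and 1.35 CPM against 4.43, 4.8 and 5.54 CPM (log2 difference 2.03, 95% interval 0.94 to 3.11, edgeR unadjusted p = 0.00241, 1.74 without B3684). All NanoTLZ tumors were higher for both genes, *Pcdhb14* being 1 of a family of similar genes whose reads may be shared. It lies in a run of 22 neighboring genes that was low in B3684 (median deviation -1.52, 20 of 22 below), whose part was not tested. *Agbl2*, an enzyme that trims the tails of tubulin, was low in all i.v. TLZ tumors at 0.145, 0.273 and 0.325 CPM and reached 0.963, 5.29 and 2.9 CPM after NanoTLZ (log2 difference 3.59, 95% interval 1.56 to 5.63, edgeR unadjusted p = 0.00373, 3.67 without B3684).

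The cartilage collagen gene *Col2a1* was among the most abundant of the higher genes. It stood at 191, 176 and 141 CPM after i.v. TLZ and 298, 628 and 799 CPM after NanoTLZ (log2 difference 1.76, 95% interval 0.85 to 2.67, edgeR unadjusted p = 0.00183). The groups did not overlap, C3519 was nearest to the i.v. TLZ tumors, and the log2 difference without B3684 was 1.80. Its saline values of 9.38, 14.2 and 21.3 CPM were below those of every treated tumor. Of the remaining higher genes by the rule, *Selp*, the adhesion molecule of activated vessels and platelets, stood at 0.679, 0.711 and 0.812 CPM against 3.32, 0.928 and 2.48 CPM (log2 difference 1.61, 95% interval 0.27 to 2.95, edgeR unadjusted p = 0.0248, 1.59 without B3684), with C3669 close to the i.v. TLZ tumors. *Slc14a1*, a urea transporter, stood at 0.436, 0.547 and 0.649 CPM after i.v. TLZ and 1.01, 3.06 and 0.983 CPM after NanoTLZ. The predicted genes *Gm14418* stood at 0.436, 0.273 and 0.703 CPM after i.v. TLZ and 1.97, 1.2 and 4.19 CPM after NanoTLZ, and *Gm5431* at 1.02, 0.383 and 0.379 CPM against 1.83, 1.31 and 2.38 CPM. None of these 3 overlapped between the groups. *Gm5431* lies in runs of neighboring genes that were low in B3684 (17 genes, median deviation -0.75) and in B3700 (12 genes, -0.89).

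On the lower side, *C1ql1*, a secreted relative of complement C1q, stood at 3.68, 2.95 and 3.03 CPM after i.v. TLZ and 0.0481, 0.109 and 0.569 CPM after NanoTLZ (log2 difference -3.70, 95% interval -5.41 to -2.00, edgeR unadjusted p = 0.000966). It was nearly absent in C3519 and C3669, and the log2 difference without B3684 was -3.76. *Foxo6*, a forkhead factor of the insulin pathway, stood at 64.2, 31.9 and 21.4 CPM against 4.67, 3.38 and 6.62 CPM (log2 difference -2.999, 95% interval -4.27 to -1.73, edgeR unadjusted p = 0.000621). The groups were far apart, with -3.12 without B3684, and the saline tumors at 5.84, 1.86 and 8.12 CPM were near the NanoTLZ level. *Tlx3*, a homeobox gene of neurons, stood at 12.8, 11 and 3.9 CPM against 2.36, 1.69 and 1.4 CPM (log2 difference -2.34, 95% interval -4.24 to -0.45, edgeR unadjusted p = 0.0247, -2.19 without B3684). *Pcbp3*, an RNA binding protein, stood at 9.11, 14.8 and 24.5 CPM against 1.49, 5.57 and 1.66 CPM (log2 difference -2.47, 95% interval -3.99 to -0.95, edgeR unadjusted p = 0.00622, -2.53 without B3684). In each of these, the lowest i.v. TLZ tumor was above the highest NanoTLZ tumor.

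*Ptgs2*, the inducible cyclooxygenase that makes prostaglandins, stood at 6.25, 23.9 and 10.6 CPM after i.v. TLZ and 3.32, 2.29 and 3.62 CPM after NanoTLZ (log2 difference -2.14, 95% interval -3.51 to -0.76, edgeR unadjusted p = 0.00756). B3684 was the highest tumor, and the log2 difference without it was -1.44. *Alox12e*, an epidermal lipoxygenase, stood at 111, 38.5 and 56 CPM against 15.3, 12.2 and 22.4 CPM (log2 difference -2.04, 95% interval -3.64 to -0.44, edgeR unadjusted p = 0.021), with B3638 highest and -2.32 without B3684. *Serpinb2*, an inhibitor of plasminogen activators, stood at 0.921, 3.23 and 2.22 CPM against 0.289, 0.437 and 0 CPM (log2 difference -3.10, 95% interval -5.61 to -0.59, edgeR unadjusted p = 0.0233, -2.67 without B3684). The other lower genes chosen by the rule are given by their CPM. *Lingo1*, a brake on myelination, stood at 1.89, 23.8 and 2.54 CPM against 0.818, 1.75 and 1.29 CPM and was carried by B3684. The dickkopf receptor *Kremen2* stood at 0.921, 3.33 and 1.41 CPM against 0.193, 0.273 and 0.466 CPM, and *Rsph1*, a part of motile cilia, at 0.727, 5.36 and 3.73 CPM against 0.53, 0.437 and 0.724 CPM. The kinase gene *Mapk4* was at 0.921, 5.36 and 1.95 CPM against 0.241, 0.764 and 0.621 CPM, and *Omp*, a marker of olfactory neurons, at 3.01, 11 and 6.28 CPM against 1.78, 2.62 and 0.673 CPM. For all of these the groups were apart.

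**Figure D2:**
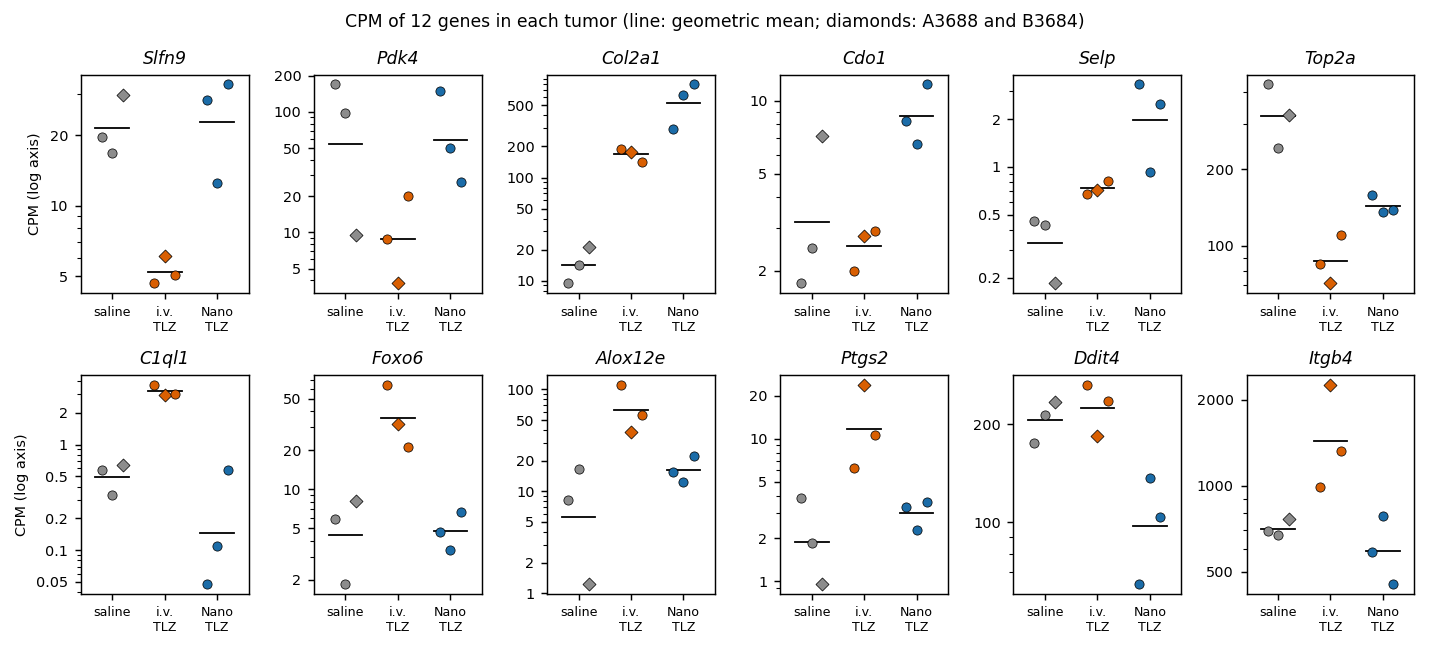
CPM on a logarithmic axis of 12 named genes in the saline, i.v. TLZ and NanoTLZ tumors, with a line at each group's geometric mean and diamonds for A3688 and B3684. Slfn9 and Col2a1 show NanoTLZ tumors above all i.v. TLZ tumors, and Foxo6 (64.2, 31.9 and 21.4 against 4.67, 3.38 and 6.62 CPM) shows them below.

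DESeq2 called *Slfn9*, *C1ql1* and *Foxo6* in both of its fits. In the fit to the 6 treated tumors it called 10 higher genes, which included *Col2a1*, *Cdo1*, *Pcdhb14*, *Slfn9*, *Slfn10-ps*, *Pdk4*, *Slfn8* and *Agbl2* with *Vit* and *Rbp4*, and 11 lower genes. *Rbp4* stood at 0.339, 0.492 and 0.379 CPM after i.v. TLZ and 10.3, 0.109 and 12.1 CPM after NanoTLZ, with C3669 below every i.v. TLZ tumor. Among the lower, *Npy*, a neuropeptide, was at 2.42, 15.1 and 0.216 CPM after i.v. TLZ and 0.0963, 0.0546 and 0.259 CPM after NanoTLZ, so B3684 was the main carrier. *Hhip*, a decoy for hedgehog ligands, was at 0.0969, 8.97 and 1.08 CPM against 0.144, 0.109 and 0.103 CPM. *Pappa*, *Cachd1* and *Crip2* were called too, beside *Pcbp3*, *Tlx3*, *Ptgs2* and *Alox12e* already described.

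The list of hypoxia and glycolysis genes had the largest share of members below 0 and the most members without overlap. HIF factors, which are stable only at low oxygen, turn on glucose transporters, glycolytic enzymes and pH regulators. Only 4 of the 34 genes had a log2 difference above 0, against 7215 of all 15821 tested genes, and 9 did not overlap, all lower, beside 4.41% of all tested genes that were lower without overlap. The median log2 difference was -0.52, against -0.04 over all genes. Without B3684 the median was -0.47 with 3 of 34 above 0, without C3669 it was -0.46 with 8 of 34 above 0, the most of any treated tumor left out, and with any 1 of the 9 tumors left out it ranged from -0.59 to -0.42. Summed over the list, the tumors had 13302, 12533 and 11869 CPM after i.v. TLZ and 9062, 7939 and 9092 CPM after NanoTLZ. All NanoTLZ tumors were below all i.v. TLZ tumors, while the saline tumors, at 11263, 9256 and 6076 CPM, were also below all i.v. TLZ tumors and lay to both sides of the NanoTLZ tumors. The most abundant member was *Pkm*, with 2103, 1494 and 3121 CPM against 1503, 1367 and 1549.9 CPM.

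*Ddit4*, which restrains mTOR under stress and is also a p53 target, had the smallest p in the list. It stood at 265, 184 and 236 CPM after i.v. TLZ and 64.6, 137 and 104 CPM after NanoTLZ (log2 difference -1.17, 95% interval -1.87 to -0.47, edgeR unadjusted p = 0.00436, -1.30 without B3684). *Pdk1*, the pyruvate dehydrogenase kinase of the hypoxia response, stood at 49.6, 38.8 and 39.1 CPM against 25.3, 14.3 and 24.4 CPM (log2 difference -0.996, 95% interval -1.86 to -0.13, edgeR unadjusted p = 0.0295, -1.05 without B3684). In both the groups were apart, and *Pdk1* thus lay on the opposite side from its relative *Pdk4*. *Pfkp*, a phosphofructokinase, stood at 314, 319 and 315 CPM against 219, 155 and 202 CPM (log2 difference -0.72, 95% interval -1.42 to -0.02, edgeR unadjusted p = 0.0452, -0.71 without B3684). The glucose transporter *Slc2a1* stood at 384, 576 and 329.7 CPM against 257, 181 and 206 CPM (log2 difference -1.003, 95% interval -2.02 to 0.02, edgeR unadjusted p = 0.0557), with B3684 highest and -0.73 without it. Every NanoTLZ tumor was lower than every i.v. TLZ tumor for these genes. *Slc2a1* lies in a run of 10 neighboring genes that was high in B3684 (median deviation 1.02).

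The other 5 members that did not overlap sense oxygen, regulate pH, modify collagen or run glycolysis. The oxygen sensor *Egln1* stood at 176, 134 and 139 CPM after i.v. TLZ and 99.2, 98.7 and 98.1 CPM after NanoTLZ, nearly equal in the NanoTLZ tumors. *P4ha2*, a collagen prolyl hydroxylase, stood at 165, 86.2 and 85.4 CPM against 74.7, 43.2 and 78.8 CPM, and the carbonic anhydrase *Car9* at 8.73, 19 and 11.3 CPM against 7.12, 6.22 and 6.98 CPM. The glycolytic genes *Aldoa* stood at 1099, 1233 and 661 CPM after i.v. TLZ and 640.2, 641 and 616 CPM after NanoTLZ, and *Ldha* at 942, 936 and 669.7 CPM against 544, 563 and 627 CPM. *Hk2*, the hexokinase with the smallest p among the 4 higher members, stood at 94.2, 93.5 and 59.8 CPM against 153, 94.1 and 86.2 CPM, where the groups overlapped.

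Because many members of this list lay on the same side, the 250 bases before the start of each gene in the RefSeq promoter table of build GRCm38.p6 were searched on both strands for the letters ACGTGC, a form of the HIF response element chosen after the data were seen. Of the 34 genes 30 matched an entry and 14 of these held the letters, beside 4.92% of 32851 promoters, and they were 6 of the 9 members that did not overlap and 8 of the 21 others. Its shorter core ACGTG, which overlaps it by definition and also serves other factors, was held by 19 of the 30 and 16.6% of all promoters. Genes with 2 or 3 promoters were counted when any of them held the letters, here and below, whereas the shares of all promoters are per promoter. A match is a description, not a site or a cause. HIF acts on genes of this kind, so the larger share than among all promoters does not bear on the comparison of the tumors. Shown 5′ to 3′ are 4 members whose groups did not overlap, with the letters in capitals: *Ddit4* at chr10:59951771-59952020 (minus strand), *Slc2a1* at chr4:119108495-119108744 (plus strand), *Egln1* at chr8:124949255-124949504 (minus strand) and *P4ha2* at chr11:54100674-54100923 (plus strand).
Ddit4: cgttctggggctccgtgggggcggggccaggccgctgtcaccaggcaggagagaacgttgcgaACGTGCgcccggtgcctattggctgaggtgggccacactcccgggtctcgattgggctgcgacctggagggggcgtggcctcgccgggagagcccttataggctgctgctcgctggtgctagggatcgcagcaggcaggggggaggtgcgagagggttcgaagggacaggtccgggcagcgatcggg
Slc2a1: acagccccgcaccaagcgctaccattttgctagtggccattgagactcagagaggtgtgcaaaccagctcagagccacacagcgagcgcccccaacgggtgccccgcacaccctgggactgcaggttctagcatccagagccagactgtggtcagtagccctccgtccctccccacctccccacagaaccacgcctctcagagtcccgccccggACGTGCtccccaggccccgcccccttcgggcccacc
Egln1: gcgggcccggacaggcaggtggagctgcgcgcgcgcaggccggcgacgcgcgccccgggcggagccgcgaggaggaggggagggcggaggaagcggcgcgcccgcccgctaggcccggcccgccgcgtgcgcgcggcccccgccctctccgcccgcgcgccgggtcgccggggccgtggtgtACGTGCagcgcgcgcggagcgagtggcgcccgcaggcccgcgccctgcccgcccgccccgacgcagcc
P4ha2: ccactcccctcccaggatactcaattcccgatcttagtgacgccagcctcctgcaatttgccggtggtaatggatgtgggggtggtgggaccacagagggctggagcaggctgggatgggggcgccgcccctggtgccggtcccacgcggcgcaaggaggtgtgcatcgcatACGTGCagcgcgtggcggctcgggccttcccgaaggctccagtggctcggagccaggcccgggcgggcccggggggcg

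Antigen presentation lay on the opposite side. MHC class II molecules show peptides from outside the cell to CD4+ T cells and are made mainly by macrophages, dendritic cells and B cells. All 11 tested genes of the list had log2 differences above 0, with a median of 0.83 against -0.04 over all genes, and 5 were higher without overlap, beside 3.2% of all tested genes. On chromosome 17, 8 members from *H2-Oa* to *H2-Eb1* lie in a run of 23 neighboring genes that is low in B3684 (median deviation -1.26, 17 of 23 below), and its part in this list was not tested. Without B3684 the median was 0.52 with 11 of 11 above 0, and without B3638 it was 1.22. Summed over the list, the tumors had 3551, 1269 and 2654 CPM after i.v. TLZ and 4128, 3475 and 5627 CPM after NanoTLZ, with B3684 lowest and B3638 within the NanoTLZ range. *Cd74*, the invariant chain, was the most abundant member at 2246, 850.3 and 1789.6 CPM against 2689.6, 2225 and 3738 CPM (log2 difference 0.82, 95% interval -0.78 to 2.43, edgeR unadjusted p = 0.283, 0.52 without B3684), with overlapping groups. *H2-DMa*, which loads peptides, had the smallest p, at 74.7, 30.2 and 50.1 CPM against 79.1, 83.4 and 117 CPM (log2 difference 0.85, 95% interval -0.49 to 2.19, edgeR unadjusted p = 0.19, 0.58 without B3684). *H2-Aa*, a chain of the peptide receptor, stood at 86.1, 35.6 and 59.2 CPM against 109, 116 and 125 CPM (log2 difference 0.95, 95% interval -0.55 to 2.46, edgeR unadjusted p = 0.192, 0.69 without B3684), and all NanoTLZ tumors were higher. MHC genes resemble each other, so reads may be shared between them.

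The promoters of this list were searched in the same way, on both strands and after the data were seen, for CTGATTGG, the Y box that MHC class II promoters are known for and that overlaps neither motif above. Of the 11 genes 8 matched a RefSeq entry and 3 held the letters, beside 3.83% of all promoters. Those 3 are shown, since they are the members in which the motif was found, again from GRCm38.p6 with the motif in capitals: *H2-Aa* at chr17:34287824-34288073 (minus strand), *H2-Eb1* at chr17:34305617-34305866 (plus strand) and *H2-Oa* at chr17:34092129-34092378 (plus strand). The match describes the sequence and neither a site nor a cause, and its share does not bear on the comparison of the groups.
H2-Aa: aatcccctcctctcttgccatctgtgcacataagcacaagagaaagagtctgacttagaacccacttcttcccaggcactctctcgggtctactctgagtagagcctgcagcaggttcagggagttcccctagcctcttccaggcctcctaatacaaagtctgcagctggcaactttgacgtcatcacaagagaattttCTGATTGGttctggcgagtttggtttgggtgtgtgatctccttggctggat
H2-Eb1: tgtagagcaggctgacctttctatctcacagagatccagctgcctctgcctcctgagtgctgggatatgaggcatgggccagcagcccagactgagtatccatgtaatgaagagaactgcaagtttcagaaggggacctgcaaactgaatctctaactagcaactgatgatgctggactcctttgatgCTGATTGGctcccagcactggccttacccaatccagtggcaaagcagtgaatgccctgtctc
H2-Oa: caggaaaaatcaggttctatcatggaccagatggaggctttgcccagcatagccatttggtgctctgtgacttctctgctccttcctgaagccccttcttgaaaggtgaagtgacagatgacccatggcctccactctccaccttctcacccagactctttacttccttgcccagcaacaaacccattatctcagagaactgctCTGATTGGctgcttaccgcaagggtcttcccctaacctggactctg

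**Figure D3:**
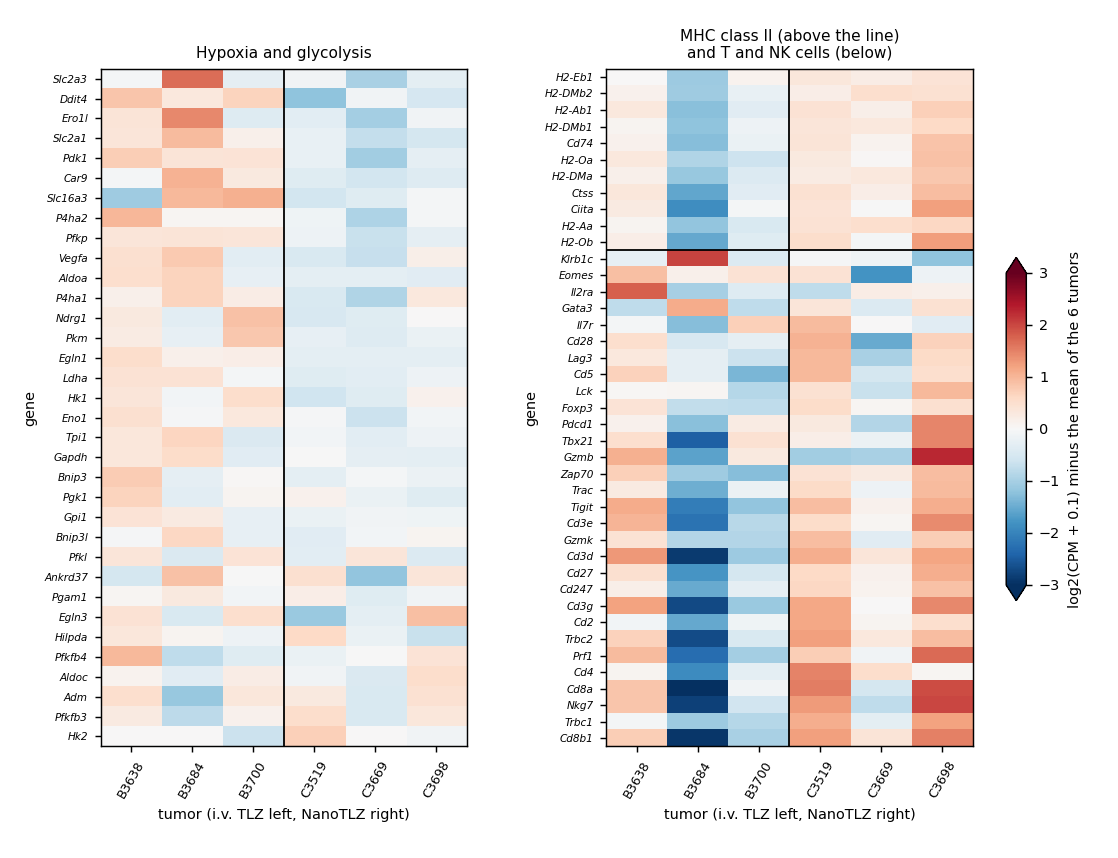
Heat maps of log2(CPM + 0.1) minus the mean of the 6 treated tumors, with hypoxia and glycolysis genes at left, MHC class II over T and NK cell genes at right, and tumors in columns. Hypoxia genes are lower in the 3 NanoTLZ columns, where the list median log2 difference is -0.52, and B3684 has low MHC class II values.

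T and NK cell genes were higher in 27 of 30 with a median of 0.88, and 1 member was higher without overlap, beside 3.2% of all tested genes. The median was 0.52 without B3684 and 1.60 without B3638, so it moved with single i.v. TLZ tumors. Summed, the list stood at 98.4, 97.7 and 60.2 CPM after i.v. TLZ and 146, 71.2 and 154 CPM after NanoTLZ, with *Gata3*, which luminal cells also make, as the most abundant member. *Cd8a* of cytotoxic T cells stood at 4.8, 0.109 and 2.43 CPM against 7.8, 1.8 and 10.50 CPM (log2 difference 1.45, 95% interval -0.98 to 3.88, edgeR unadjusted p = 0.221), near 0 in B3684, and was 0.89 without it. *Cd3e* stood at 3.93, 0.328 and 1.03 CPM after i.v. TLZ and 2.84, 1.96 and 5.28 CPM after NanoTLZ, and *Cd4* at 5.57, 1.37 and 4.33 CPM against 14.9, 7.7 and 5.54 CPM, where the groups overlapped for both. *Trbc1*, a T cell receptor chain, had the smallest p of the higher members, at 1.11, 0.492 and 0.595 CPM against 2.6, 0.928 and 2.79 CPM. The part of T cell numbers was not tested.

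Macrophages are the cells that take up most liposomes. In the macrophage list 19 of 27 genes were higher, with a median of 0.46, 0.18 without B3684 and 0.85 without B3638, and 7 were higher without overlap, beside 3.2% of all tested genes, among them *Adgre1*, *Lyz2*, *Cx3cr1*, *Ly6c2*, *Aif1* and *Mpeg1*. *Cx3cr1*, the receptor for fractalkine, stood at 111, 56.4 and 82.8 CPM after i.v. TLZ and 146, 152 and 155 CPM after NanoTLZ (log2 difference 0.85, 95% interval -0.13 to 1.84, edgeR unadjusted p = 0.0848, 0.64 without B3684), with nearly equal NanoTLZ tumors. *Adgre1*, which encodes F4/80, stood at 39.2, 15.7 and 48.6 CPM against 61.8, 49.9 and 80.3 CPM (log2 difference 0.89, 95% interval -0.20 to 1.99, edgeR unadjusted p = 0.102, 0.55 without B3684). Their groups were apart, *Adgre1* by a small margin. *Csf1r* stood at 370.3, 137 and 261 CPM after i.v. TLZ and 348, 314 and 422 CPM after NanoTLZ, and *Cd68* at 54.4, 29.6 and 61 CPM against 67.3, 53 and 68.6 CPM. The summed list, with *Apoe* as the most abundant member, stood at 9126, 7753 and 8798 CPM against 9357, 10351 and 11439.8 CPM, a far smaller difference than that of *Cx3cr1*.

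Lists for uptake, degradation and lipids bear on a liposome's fate. Scavenger and phagocytic receptors were higher in 19 of 24 genes, with a median of 0.40, 0.18 without B3684 and 0.73 without B3638, and *Msr1* and *Fcgr1* were higher without overlap, beside 3.2% of all tested genes. Their most abundant member *Lrp1*, which takes up many ligands, stood at 443, 264 and 252 CPM against 274, 327 and 291 CPM. *Msr1*, which binds modified lipoproteins, stood at 36, 19.7 and 37.4 CPM against 38.9, 37.5 and 37.8 CPM, and the antibody receptor *Fcgr1* at 23.2, 10.1 and 15 CPM against 26.8, 23.8 and 53.4 CPM. *Cd36*, a fatty acid carrier with the smallest p of the higher members, stood at 3.88, 2.3 and 4.22 CPM against 18, 3.44 and 4.6 CPM, with overlap. Lysosomal genes were higher in 25 of 33 with a median of 0.16, 0.06 without B3684 and 0.44 without B3638, and 1 was higher without overlap, against the same 3.2%. *Ctsd*, their most abundant protease, stood at 3542, 1268 and 1754 CPM against 2039, 2018 and 2359.9 CPM.

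Sterol export and LXR targets, which move cholesterol out of the cell, had a median of 0.20 (0.09 without B3684 and 0.04 without C3519) with 14 of 19 higher and 1 higher without overlap, beside 3.2% of all tested genes. *Apoe* stood at 2709, 963 and 3341 CPM against 2586, 3019.9 and 3739 CPM and the sterol receptor *Nr1h3* at 8, 4.81 and 12.9 CPM against 14.5, 13.4 and 14.1 CPM. Cholesterol synthesis had a median of -0.04 (0.09 without B3684 and 0.24 without B3638) with 11 of 24 above 0, with 1 higher and 1 lower member without overlap, beside 3.2% and 4.41% of all tested genes. The lower was *Dhcr7*, of the last step of synthesis, at 53.8, 94.2 and 42.5 CPM against 35.2, 36 and 37 CPM. Fatty acid synthesis had a median of -0.07 (-0.13 without B3684 and 0.04 without B3638), with *Scd1* at 1050.2, 168 and 535 CPM against 434, 214 and 432 CPM and *Elovl1*, an elongase, at 78.5, 156 and 77 CPM against 74.4, 61.9 and 74.4 CPM. In none of these 3 lipid lists did more than 1 member in a direction lie without overlap.

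The medians of the remaining immune lists moved with single tumors of both groups. Interferon stimulated genes were higher in 29 of 40 with a median of 0.40, which was 0.10 without B3684, 1.12 without B3638 and 0.09 without C3698. *Gbp2*, a GTPase against microbes, stood at 349, 21.1 and 25.8 CPM against 163, 81.9 and 333 CPM and *Ifi27l2a* at 0.0485, 0.164 and 0.216 CPM against 2.65, 0.491 and 0.414 CPM. MHC class I genes were all above 0 (19 of 19, median 0.44) but none was without overlap. Their median was 0.05 with 12 of 19 above 0 without B3684, 0.81 without B3638 and -0.14 without C3698. *H2-D1* stood at 3697.9, 679 and 2863 CPM against 2358, 1529 and 4876 CPM, so C3698 and B3684 set the direction. Complement genes had a median of 0.28 (0.14 without B3684 and 0.86 without B3638), with 15 of 20 higher and 3 higher without overlap, beside 3.2% of all tested genes, and *C3* stood at 437, 731 and 1123 CPM against 1466, 649.6 and 1404 CPM.

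Dendritic cell genes had a median of 0.44 (0.23 without B3684 and 0.68 without B3638), with 15 of 20 higher, and *Fscn1*, an actin bundler that tumor cells also make, stood at 319, 340.0 and 469 CPM against 148, 249 and 321 CPM. In the same order, chemokines and their receptors had 0.26 (0.03 and 0.88, and 0.05 without C3698), with 28 of 48 higher, against 7215 of all 15821 tested genes, and 4 higher without overlap, beside 3.2% of all tested genes, and *Cxcl14* stood at 920.5, 147 and 126 CPM against 541, 244 and 228 CPM. For neutrophil and myeloid suppressor genes the median was -0.07 (-0.29 and 0.86, but 0.12 without C3519 and -0.50 without C3698). *Ltf*, which is also a milk protein, stood at 4291, 11.9 and 487 CPM against 555, 1062 and 369 CPM. It made most of the list's sum over the treated tumors together, but not in B3684, where the list summed to 162 CPM. B and plasma cell genes had 0.51 (0.12 and 2.27, but -0.29 without C3519, where the direction turned), with *Igkc*, the antibody light chain, at 78.6, 0.711 and 2.92 CPM against 97.3, 4.86 and 26.5 CPM. *Igkc* was high in B3638 and C3519, which belong to different groups. *Jchain*, which joins antibody units, stood at 20.6, 0.601 and 1.51 CPM against 26.9, 1.47 and 7.45 CPM, and immunoglobulin genes share sequence, so their reads are uncertain.

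Vessels carry a liposome to the tumor. In the endothelium list 25 of 27 genes were higher, against 7215 of all 15821 tested genes, with a median of 0.43, 0.28 without B3684 (21 of 27 higher) and 0.87 without B3638, and *Tek*, *Erg*, *Aplnr* and *Selp* were higher without overlap, beside 3.2% of all tested genes. *Aplnr*, the apelin receptor of sprouting vessels, stood at 11.2, 8.86 and 6.06 CPM after i.v. TLZ and 19, 20.9 and 16.3 CPM after NanoTLZ (log2 difference 1.11, 95% interval 0.33 to 1.88, edgeR unadjusted p = 0.0103, 1.12 without B3684). *Tek*, the angiopoietin receptor, stood at 4.17, 2.57 and 3.3 CPM against 6.02, 6.88 and 5.02 CPM, and the factor *Erg* at 7.22, 4.54 and 3.46 CPM against 9.92, 7.64 and 8.64 CPM. These were higher in every NanoTLZ tumor. The defining markers *Pecam1* stood at 43.4, 18.1 and 18 CPM after i.v. TLZ and 47.6, 48 and 35.2 CPM after NanoTLZ, and *Cdh5* at 44.4, 14.4 and 19.6 CPM against 37.5, 43.4 and 39.3 CPM. B3638 lay within the NanoTLZ range for *Pecam1* and above it for *Cdh5*. Summed, the list stood at 911, 526 and 533 CPM against 790.1, 866 and 753 CPM, with *Notch3*, a gene of pericytes, most abundant, and the part of vessel density in the hypoxia genes was not tested.

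Genes of cell division did not separate the groups. The mitosis list had a median of -0.04 with 18 of 42 above 0, which was -0.08 without B3684, -0.30 without B3638 and 0.43 without B3700. Summed, it stood at 719.8, 1207 and 1912 CPM after i.v. TLZ and 1349.7, 1093 and 1346 CPM after NanoTLZ, so the i.v. TLZ tumors reached to both sides of the NanoTLZ tumors. *Top2a*, the topoisomerase of dividing cells, was the 1 member of 42 without overlap, at 84.5, 71.2 and 110.2 CPM against 158, 135 and 138 CPM (log2 difference 0.70, 95% interval 0.05 to 1.35, edgeR unadjusted p = 0.0376, 0.57 without B3684), beside 3.2% of all tested genes. It lies with *Cdc6* in a run of 18 neighboring genes on chromosome 11 that was low in B3684 (median deviation -1.02), whose part was not tested. Replication genes were above 0 in 28 of 39, against 7215 of all 15821 tested genes, but in 16 of 39 without B3638. Their median was 0.12 (0.05 without B3684, -0.12 without B3638 and 0.48 without B3700), and *Cdc6*, *Gins2* and *Tyms* were higher without overlap, against the same 3.2%. *Cdc6*, which loads the replicative helicase, stood at 12, 5.63 and 13.6 CPM against 18.1, 15.1 and 19.6 CPM, *E2f2*, a factor of S phase entry, at 29.5, 21.3 and 25.4 CPM against 20.5, 13.4 and 24 CPM, and *Pcna*, the sliding clamp, at 119.8, 156 and 196 CPM against 164, 143 and 146 CPM with overlap.

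By their list medians, the drug's own pathways differed little. *Parp1*, the target, stood at 86.1, 52.3 and 115 CPM after i.v. TLZ and 121, 91.7 and 127 CPM after NanoTLZ (log2 difference 0.42, 95% interval -0.27 to 1.12, edgeR unadjusted p = 0.206, 0.17 without B3684), with overlap. With 1 tumor left out at a time its log2 difference ranged from 0.17 to 0.73. Of the PARP and single strand break repair list 12 of 23 were above 0, with a median of 0.03 (0.04 without B3684 and -0.04 without B3638), and *Tnks2*, a tankyrase and the most abundant member, stood at 127, 236 and 249 CPM against 256, 229 and 224 CPM. *Parp16*, a PARP of the endoplasmic reticulum, was the only member without overlap, at 25, 25.3 and 39 CPM against 20.1, 18.6 and 16.8 CPM (log2 difference -0.69, 95% interval -1.34 to -0.03, edgeR unadjusted p = 0.0416, -0.79 without B3684 and -0.42 without B3700), beside 4.41% of all tested genes that were lower without overlap. Homologous recombination and Fanconi anemia genes had a median of -0.03 (0.01 without B3684, -0.11 without B3638 and 0.21 without B3700), with 16 of 34 above 0 and none without overlap. *Rbbp8*, which starts the resection of DNA ends, stood at 36, 48 and 64.9 CPM against 62.1, 54.4 and 41.5 CPM, and *Fancm*, a translocase that remodels stalled forks, at 10.3, 7.16 and 7.63 CPM against 12.4, 15.9 and 10.1 CPM. Both of these overlapped.

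p53 targets had a median of -0.07 (-0.10 without B3684, -0.02 without B3700 and -0.02 without C3519) with 11 of 30 above 0, and *Cdkn1a*, *Plk3*, *Perp* and *Ddit4* were lower without overlap, beside 4.41% of all tested genes. *Plk3* lies in a run of 19 neighboring genes that was high in B3684 (median deviation 1.08). *Cdkn1a*, the p21 inhibitor of the cell cycle, stood at 128, 78.3 and 85.3 CPM against 74.9, 76.1 and 57.2 CPM (log2 difference -0.49, 95% interval -1.08 to 0.10, edgeR unadjusted p = 0.0963, -0.62 without B3684 and -0.23 without B3638). The separation was narrow, with C3669 just under B3684.

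*Abcb1a*, which encodes a form of the P-glycoprotein pump that exports Talazoparib, stood at 2.18, 68.9 and 1.46 CPM after i.v. TLZ and 3.47, 13.3 and 3.57 CPM after NanoTLZ (log2 difference -1.83, 95% interval -4.52 to 0.85, edgeR unadjusted p = 0.171). B3684 was by far the highest, C3669 came next, and without B3684 the log2 difference was 1.90. Its paralog *Abcb1b* stood at 3.73, 90.8 and 3.57 CPM against 5.44, 16.5 and 4.97 CPM (log2 difference -1.87, 95% interval -4.57 to 0.83, edgeR unadjusted p = 0.166), again with B3684 highest and C3669 next, and 1.30 without B3684, and the reads of the pair may be shared. *Abcg2*, another exporter, stood at 4.17, 45.8 and 2.87 CPM against 5.87, 3.66 and 6.26 CPM. *Abcc1*, the most abundant exporter of the list over the treated tumors together, stood at 139.8, 85.5 and 113 CPM against 200.5, 82.7 and 112 CPM. In B3684 *Abcb1b* was above it. The list's median was -0.13 with 4 of 9 above 0, and 0.58 with 8 of 9 above 0 without B3684, so its direction depended on that tumor.

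Genes of epithelial identity showed a few lower members. In the luminal list 12 of 30 were above 0 (median -0.22, -0.23 without B3684, -0.14 without B3638 and -0.09 without C3519), with 5 lower members and 1 higher not overlapping, beside 4.41% and 3.2% of all tested genes. *Cldn4*, a tight junction protein, stood at 930.2, 897 and 1018 CPM after i.v. TLZ and 604, 566 and 289 CPM after NanoTLZ (log2 difference -0.96, 95% interval -1.73 to -0.20, edgeR unadjusted p = 0.0198, -0.9999 without B3684), and every NanoTLZ tumor was lower. *Kit*, the receptor of luminal progenitors, was the higher one, at 134, 122 and 81.5 CPM against 164, 179 and 165 CPM (log2 difference 0.59, 95% interval -0.02 to 1.21, edgeR unadjusted p = 0.0575, 0.66 without B3684). In saline it stood at 315, 291 and 416 CPM, above every treated tumor. *Krt8* stood at 1158, 1608 and 1821 CPM against 1359.8, 1318 and 738 CPM. The basal list had a median of -0.18 (-0.35 without B3684 and 0.38 without B3638). Its most abundant member over the treated tumors together was *Itgb4*, the integrin of hemidesmosomes, at 987, 2254 and 1323 CPM against 589, 782 and 454 CPM without overlap (log2 difference -1.32, 95% interval -2.15 to -0.49, edgeR unadjusted p = 0.00572, -0.92 without B3684). *Krt14*, another epithelial marker, stood at 2584, 122 and 842 CPM against 1015, 1091 and 554 CPM. It was above *Itgb4* in B3638 and in every NanoTLZ tumor.

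Keratinized squamous genes had a median of -1.13 over 8 tested genes (-0.44 without B3684 and -0.12 without B3638), and *Lor*, of the cornified envelope, stood at 0.63, 20.6 and 0.866 CPM against 0.289, 0.709 and 0.983 CPM. Milk protein genes had a median of 0.15 (0.16 without B3684 and -0.01 without C3698), with *Mfge8*, which also tags dying cells, at 1582, 2929 and 1458 CPM against 1681, 2720.2 and 1904 CPM. Genes of epithelial to mesenchymal transition had -0.05 (-0.02 without B3684 and 0.21 without B3638). *Fn1*, for fibronectin and the most abundant member, stood at 2309.9, 9705 and 2629.5 CPM against 2028, 2296 and 1706 CPM, and B3684 was far above the others. *Prrx1*, a factor of that program and of mesenchyme, stood at 29.1, 43.8 and 50.9 CPM against 16.4, 17.9 and 13.1 CPM (log2 difference -1.38, 95% interval -2.05 to -0.72, edgeR unadjusted p = 0.00103, -1.34 without B3684), with every NanoTLZ tumor lower.

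Cartilage matrix genes followed *Col2a1* in part. 15 of 20 were above 0 with a median of 0.45, 0.78 without B3684 and -0.04 without C3698, and *Col2a1*, *Col9a3*, *Matn4* and *Chad* were higher without overlap, beside 3.2% of all tested genes. *Chad*, a matrix protein that binds collagen, stood at 7.71, 1.26 and 3.95 CPM against 10.01, 10.8 and 14.8 CPM (log2 difference 1.46, 95% interval 0.19 to 2.73, edgeR unadjusted p = 0.0308, 1.03 without B3684). *Col9a3* stood at 127, 105 and 112 CPM after i.v. TLZ and 231, 224 and 179 CPM after NanoTLZ, and *Matn4* at 46.7, 5.63 and 50.2 CPM against 69.4, 59.4 and 60.3 CPM, with every NanoTLZ tumor higher. Fibroblast matrix genes had a median of -0.04 (-0.31 without B3684, 0.65 without B3638 and 0.12 without C3698). *Postn*, a matrix protein of activated fibroblasts, stood at 341, 155 and 389.7 CPM against 663, 552 and 488 CPM without overlap (log2 difference 0.94, 95% interval 0.05 to 1.83, edgeR unadjusted p = 0.0415, 0.64 without B3684), whereas *Col1a1* stood at 3049, 446 and 1276 CPM against 1435, 1130.0 and 729 CPM.

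Other lists are given by their medians. Adipocyte genes had 0.75 (0.71 without B3684, 1.30 without B3638), but -0.01 without C3519, the 1 tumor in which *Adipoq* reached 2.84 CPM. *Cfd*, the adipsin of fat cells that also serves complement, stood at 1.26, 1.42 and 0.757 CPM against 18.9, 1.96 and 0.31 CPM. Skeletal muscle genes had -0.09 (-0.09 without B3684, -0.0024 without B3638 and -0.27 without C3519), and those of blood -0.67 (-0.55 without B3684 and -0.25 without B3638) over 8 genes. For mitochondrially encoded genes the median was -0.17 (-0.06 without B3684 and -0.26 without B3638, but 0.05 without C3698, where the direction turned), with *mt-Co1* at 8625, 10355 and 9523 CPM against 7254, 8267 and 5504 CPM. Immediate early and stress genes, which respond within minutes to handling and stress, were above 0 in 9 of 36 with a median of -0.32 (-0.18 without B3684 and -0.15 without B3700), and 5 were lower without overlap, beside 4.41% of all tested genes. *Hspa5*, a chaperone of the endoplasmic reticulum, stood at 1055, 1485 and 1594 CPM against 1279, 951 and 2049 CPM and the small heat shock gene *Hspb1* at 505, 260.4 and 358 CPM against 215, 161 and 367 CPM.

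Wnt, Notch and growth factor signals had a median of -0.17, which was 0.08 without B3684 and -0.03 without B3638, so the direction turned when B3684 was left out. *Wnt4*, the Wnt ligand downstream of progesterone, stood at 74.3, 94.6 and 19.8 CPM after i.v. TLZ and 18.3, 18.6 and 16.7 CPM after NanoTLZ (log2 difference -1.81, 95% interval -2.88 to -0.75, edgeR unadjusted p = 0.00407, -1.39 without B3684). Even the lowest i.v. TLZ tumor, B3700, exceeded all NanoTLZ tumors, though narrowly. *Igf2*, an imprinted growth factor, stood at 16.2, 0.656 and 3.95 CPM against 3.03, 19.3 and 1082 CPM, with C3698 alone high.

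**Figure D4:**
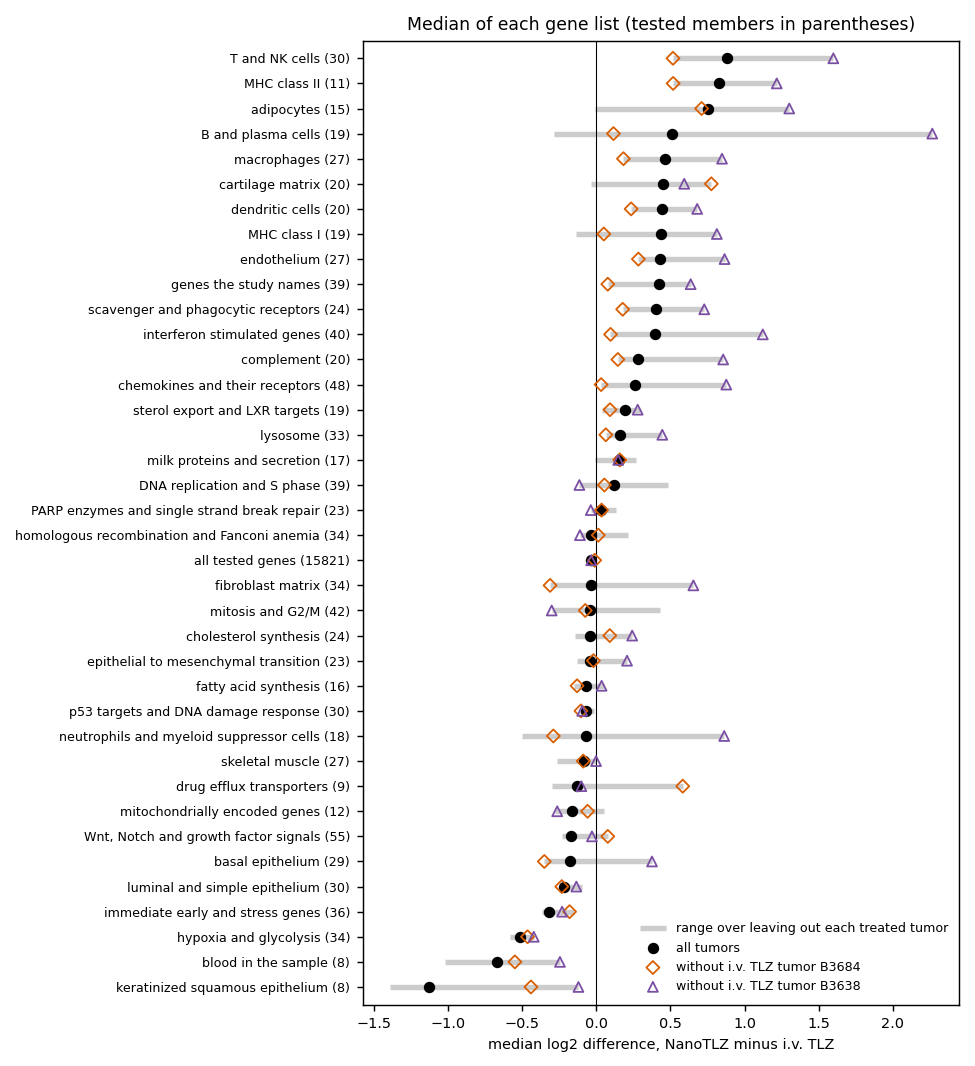
Median log2 difference, NanoTLZ minus i.v. TLZ, of each gene list with all tumors, without B3684 and without B3638. Gray bars give the range when any 1 treated tumor is left out. Hypoxia and glycolysis stays between -0.59 and -0.42, while B and plasma cells run from -0.29 to 2.27.

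The genes the study names were also read as a list. Of the 39 tested, 26 were above 0, with a median of 0.42, 0.08 without B3684 and 0.64 without B3638, and 6 were higher without overlap, beside 3.2% of all tested genes. *Ccnd1*, the G1 cyclin, stood at 457, 721 and 296 CPM against 483, 369 and 288 CPM and *Ccne1* at 5.48, 7.93 and 7.25 CPM against 9.82, 4.48 and 5.48 CPM. *Ngfr*, the neurotrophin receptor, stood at 30.01, 6.18 and 3.73 CPM against 48.5, 25.2 and 7.14 CPM, and *Bcl11a* of progenitors at 5.96, 6.4 and 6.55 CPM against 6.11, 6.49 and 6.73 CPM. The *Bcl11a* values of all 6 treated tumors lay close together, while *Ngfr* varied severalfold within both groups. *Myb*, a factor of progenitors, stood at 0.824, 3.28 and 5.09 CPM against 1.4, 0.928 and 2.64 CPM, and *Tnfrsf19*, a Wnt target, at 3.83, 6.18 and 1.41 CPM against 6.79, 2.89 and 5.79 CPM. The chemokine *Cxcl12* stood at 23.1, 22.8 and 5.68 CPM against 22, 24.7 and 17.1 CPM, and *Sod3*, an enzyme against superoxide outside the cell, at 91, 127 and 45.8 CPM against 38.6, 57.1 and 85.7 CPM. For all of these genes the groups overlapped.

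Of the damage genes, *Gadd45a* stood at 26.7, 31.5 and 28.2 CPM after i.v. TLZ against 21.23, 30.9 and 18.2 CPM after NanoTLZ. *Gadd45b* stood at 74.7, 19.4 and 64.8 CPM against 44, 73 and 52.7 CPM and *Gadd45g* at 106, 35.6 and 56.9 CPM against 60.6, 66.5 and 56.2 CPM. The histone gene *H2afx*, whose product marks breaks, was lowest in B3638 and C3519 and stood at 39.8, 59.9 and 111 CPM against 36.9, 48.2 and 114 CPM. The muscle genes *Myh4*, at 0.0485, 0.0547 and 0.216 CPM against 0.193, 0 and 0.103 CPM, and *Mylpf*, at 1.16, 0.984 and 0.649 CPM against 1.25, 0.873 and 0.673 CPM, did not follow the groups. *Eef1a2*, a muscle and neuron elongation factor, stood at 0, 0.164 and 0 CPM against 0.0963, 0.109 and 0 CPM, and *Il13ra2*, a decoy for interleukin 13, at 4.51, 0.109 and 3.03 CPM against 1.83, 2.13 and 1.24 CPM. *Foxp3* of regulatory T cells stood at 0.727, 0.273 and 0.271 CPM against 0.818, 0.546 and 0.776 CPM, and *Itgam* of myeloid cells at 61.2, 26.3 and 67.8 CPM against 63.5, 64.5 and 91.2 CPM. Again the groups overlapped for every one of these genes. The muscle gene *Myl1* was 1 of the 6 higher genes without overlap, at 0.0485, 0 and 0 CPM against 0.193, 0.0546 and 0.103 CPM, only a few counts in any of them, and *Kit*, *Top2a*, *Adgre1* and *Ly6c2* were others. *Ly6c2* of monocytes stood at 1.36, 0.328 and 1.24 CPM against 1.73, 1.69 and 3.83 CPM, while its paralog *Ly6c1*, which vessels make too, stood at 115, 17.7 and 18.2 CPM against 40.1, 17.6 and 92 CPM with overlap and may share reads with it. The antibody gene *Igha* stood at 114, 1.15 and 3.84 CPM against 116, 3.82 and 46.8 CPM and *Ighg2b* at 4.94, 0 and 0.271 CPM against 10.4, 0.382 and 1.6 CPM, both scattered over the groups.

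The groups differed in how alike their tumors were. Spearman correlations of log2 CPM were 0.965-0.970 within NanoTLZ and 0.912-0.948 within i.v. TLZ, and the pair without B3684 had 0.948. The biological coefficient of variation was 32.2% within NanoTLZ and 51.2% within i.v. TLZ, or 41.6% without B3684, beside 61.5% within saline. The SD of log2 CPM was larger in the i.v. TLZ group in 70.6% of genes, with medians of 0.467 and 0.302. That share was 53.6% without B3684 and reached 76.0% without C3669. With a tumor left out, SDs of groups of unequal size are compared, so these shares cannot be set directly beside 70.6%. By correlation and by coefficient of variation the NanoTLZ tumors were the most alike with B3684 or without it. The fall of the share without B3684 cannot be told apart from the effect of the smaller group. So few tumors give a spread little precision, and no test of it was made.

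The widest ranges within i.v. TLZ were set by B3684 and B3638. *Krt6b*, a keratin of stressed epithelium, stood at 416, 0.109 and 9.58 CPM after i.v. TLZ and 77.9, 18.2 and 14.2 CPM after NanoTLZ. *Cst6*, a protease inhibitor, stood at 1.11, 599.6 and 5.36 CPM against 23.5, 18.9 and 9.68 CPM, and *Gucy1a2*, a subunit of the nitric oxide receptor, at 0.194, 131 and 0.541 CPM against 0.337, 0.491 and 0.259 CPM. *Krt6a*, the neighbor of *Krt6b*, stood at 894, 1.86 and 233 CPM against 207, 199 and 134 CPM. B3684 had almost no *Krt6a* or *Krt6b* and was alone in its high *Cst6* and *Gucy1a2*. Within NanoTLZ, the calcium channel gene *Cacna1e* stood at 1.25, 77.9 and 0.103 CPM, and the mucosal *Bpifb1* at 3.47, 1.42 and 249.8 CPM. C3669 alone had high *Cacna1e*, while C3698 was highest for *Bpifb1*. *H19*, an imprinted RNA next to *Igf2*, stood at 171, 6.45 and 284 CPM against 952, 333 and 13 CPM, and *Cftr*, the chloride channel, at 42.2, 6.51 and 149.6 CPM against 99.1, 2.07 and 385 CPM. Where *Igf2* was highest, in C3698, *H19* was the lowest of the NanoTLZ tumors.

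Neighboring genes that deviate together were looked for in a scan added after the data were seen, in windows of 10 genes with a median deviation over 1 on the log2 scale from the median of the treated tumors. B3684 had 48 such runs with 794 genes, B3638 had 8, B3700 had 13, C3519 had 1, C3669 had 3 and C3698 had 10. The longest, 52 genes on chromosome 6 in B3684, had a median deviation of 2.20 with 51 above 0. On chromosome 9, a run of 35 genes in B3684 (2.95) and a run of 42 genes in C3519 (1.10) both hold *Yap1*, *Birc2* and *Birc3*, which were singled out after their values were seen. A run of 17 genes with the same 3 genes was low in C3669 (-0.76, 13 of 17 below), so the NanoTLZ tumors held runs in both directions there. *Yap1*, the co-activator at the end of the Hippo pathway, stood at 277, 1294 and 187 CPM against 1737, 70.1 and 161 CPM. *Birc2* stood at 39.9, 252 and 67 CPM after i.v. TLZ and 454, 23.5 and 45.7 CPM after NanoTLZ, and *Birc3* at 54.5, 407 and 67.5 CPM against 764, 39.1 and 64.5 CPM.

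A run of 25 genes with *Met* on chromosome 6 was low in B3684 (-2.10). *Met*, the receptor for hepatocyte growth factor, stood at 5219, 86.6 and 2671 CPM after i.v. TLZ and 6779, 7299 and 6971 CPM after NanoTLZ (log2 difference 1.40, 95% interval -1.67 to 4.47, edgeR unadjusted p = 0.342, 0.83 without B3684). The NanoTLZ tumors were above all i.v. TLZ tumors, of which B3684 was by far the lowest, and the saline tumors, at 14422, 9018 and 86.5 CPM, held 1 low tumor as well. These counts hold no measure of DNA copy number, and its part in these runs was not tested.

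**Figure D5:**
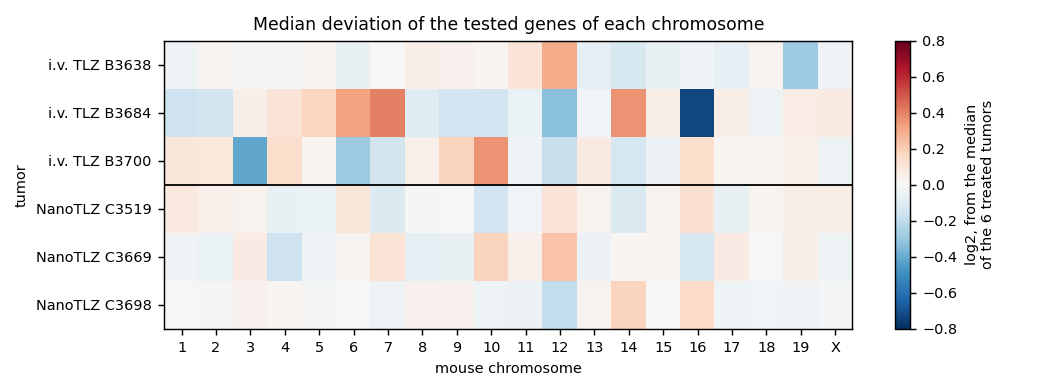
Median deviation of log2 CPM from the treated tumors' median, for the genes of each chromosome (columns) in each treated tumor (rows). B3684 shows the largest deviations, with chromosome 16 at -0.73, and the NanoTLZ tumors stay between -0.20 and 0.23.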

How the data were processed

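Raw counts of reads per gene were deposited for 9 tumors, 3 each of saline, i.v. TLZ and NanoTLZ, and the submitters' notes name mm10, TopHat2 and DESeq2 without versions. The table lists 35275 Ensembl genes, of which 34490 had a symbol and position in GENCODE M21 and 785 had not. Depth was 17538380-21194980 counts per tumor, and 3 counts were taken as the floor. Tumors were grouped by their labels, and the members and lists were chosen with earlier results of these data known.

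Genes were kept by filterByExpr of edgeR 4.0.16 under R 4.3.3 (minimum count 10, minimum total 15), which left 15821. Counts were scaled by TMM, a model with 1 coefficient for each group was fitted over the 9 tumors by estimateDisp and glmQLFit, and NanoTLZ minus i.v. TLZ was tested with glmQLFTest. P-values were adjusted by Benjamini-Hochberg over all 15821 genes, and an adjusted p under 0.05 was called. Log2 CPM for correlations and runs used a prior count of 2. Other work used Python 3.11.15, scipy 1.17.1, pandas 2.3.3, numpy 2.4.6 and, for figures, matplotlib 3.10.9. The methods were tested on simulated data with less spread than these tumors show. That test does not measure what could be missed here.

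Genes were named if the study names them, if called, or if most abundant or smallest in p in a direction within 1 of 37 lists. Also named were the 12 largest differences in a direction with an unadjusted p under 0.05 and no overlap. A mean of at least 1 CPM over the 6 treated tumors was required for these, and 43 higher and 73 lower genes met these terms. The 5 widest ranges in a group were named too. For brevity, part of the genes named only as extremes of a list, and *Myh1*, *Myh2*, *Mybpc2* and *Il2ra*, are not given by value. A few genes that the rule names are not reported here. Members of lists without overlap, the genes DESeq2 called, the motifs and the scan for runs of neighboring genes were added after the values were seen.

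Alternatives were DESeq2 1.42.0 on 9 and on 6 tumors, edgeR on the 6 treated tumors, RLE and upper quartile scaling, no filter on low counts, 10 counts in every tumor, the robust dispersion, edgeR with legacy = FALSE, limma-voom of limma 3.58.1, and each tumor left out in turn. Added after seeing the data were the spread within a group with each of its treated tumors left out, and the count of genes without overlap under other scalings and filters.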

Additional observations from a re-analysis of the deposited data

How the results depend on the processing

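The number of genes called was 0 with every edgeR setting and with limma-voom, but 3 with DESeq2 fitted to 9 tumors and 21 with DESeq2 fitted to the 6 treated tumors. The number at an unadjusted p under 0.05, 266 as reported, was 435 and 737 in these DESeq2 fits, 495 with edgeR on the 6 treated tumors, and 543 without a filter on low counts. When 1 tumor was left out at a time, it ranged from 156 (without C3519) to 623 (without B3638), with 474 without A3688, 403 without B3700 and 158 without C3698. Limma-voom gave 86 higher and 99 lower genes, and edgeR with legacy = FALSE gave 94 and 222. The number of genes without overlap, 1204 in the main analysis, was 985 to 1646 under other scalings and filters, which were added after seeing the data.

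Of 703 alternative values of list medians, 681 moved by less than the spread between tumors, and 17 of the 37 lists had no value that moved more. The median log2 difference of keratinized squamous genes was -0.28 where 10 counts in every tumor were required. Where 1 tumor was left out, medians ranged from 0.0769 to 0.64 for the genes the study names, -0.12 to 0.48 for replication, -0.11 to 0.21 for homologous recombination, -0.0381 to 0.13 for PARP enzymes, -0.30 to 0.58 for drug efflux, 0.0636 to 0.44 for lysosome and 0.14 to 0.86 for complement. They ranged from -0.50 to 0.86 for neutrophils, -0.29 to 2.27 for B and plasma cells, 0.0318 to 0.88 for chemokines, -0.23 to -0.094 for luminal, -0.35 to 0.38 for basal, -1.40 to -0.12 for squamous, -0.31 to 0.65 for fibroblast and -0.039 to 0.78 for cartilage genes. The ranges were -0.13 to 0.21 for epithelial to mesenchymal transition, 0.28 to 0.87 for endothelium, -0.0096 to 1.30 for adipocytes, -1.02 to -0.25 for blood and -0.23 to 0.0769 for Wnt, Notch and growth factor signals. Each of the lists of macrophages, T and NK cells, B and plasma cells, fibroblast matrix and basal epithelium moved more without B3638 than without any other tumor. Other lists, such as neutrophils and chemokines, did so too, and the cause was not tested. The biological coefficient of variation of the i.v. TLZ group ranged from 41.6% without B3684 to 55.05% without B3700. The share of genes with the larger SD after i.v. TLZ, 70.6% as reported, ranged from 53.6% without B3684 to 76.0% without C3669. These values were added after seeing the data and compare groups of unequal size, so they cannot be set directly beside 70.6%.

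Of 845 alternative values for 45 named genes, 843 kept their direction. The log2 differences of *Abcb1a* (1.90) and *Abcb1b* (1.30) were reversed without B3684, and with 1 tumor left out at a time they ranged from -2.77 to 1.90 and from -2.64 to 1.30. DESeq2 called genes that edgeR did not in 17 of these values.

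No paired analysis was possible because nothing in the labels links a tumor of one group to a tumor of another, and replicate numbers only follow the order of the records. With 3 tumors a side, a typical 95% interval reached 0.985 to each side of a log2 difference, so most differences of less than a doubling could not be seen. The tumors are bulk tissue, no empty liposome was given to a sequenced tumor, and these counts hold no measure of drug levels, oxygen or DNA copies. Differences described here therefore hold for these 6 tumors, and whether they come from the carrier, from the drug's delivery, or from tumors that differed at the start was not tested.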
